A study of Sus scrofa with 4 samples.

Results

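Imprinted genes, which are transcribed mainly from the copy inherited from 1 parent, were examined in pig embryos grown from the zygote to the expanded blastocyst with or without ethanol. The genes considered were MEST, IGF2R, IGF2, PEG3, PEG10, PLAGL1, CDKN1C, GRB10, SGCE and NNAT, and a probe belonged to a gene when the array's annotation gave it that symbol. Probes were found for 6 of the 10 genes, 12 probes in all, out of 11060 genes with a usable symbol on the array. No probe carried the symbol IGF2, PEG3, PEG10 or CDKN1C, so these 4 genes were not measured under those names.

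The medium was PZM3, made for pig embryo culture. Exposed embryos had ethanol at 0.2% in it for 7 days in sealed glass vials, and control embryos had no compound added. Pools of 10 blastocysts were compared on 4 two-colour arrays, each holding amplified RNA of 1 exposed and 1 control pool. The dyes were swapped, so that ethanol samples were in Cy5 for arrays 1 and 3 but in Cy3 for arrays 2 and 4. Nothing in the labels tells if pools were from independent cultures, so the p-values measure only the spread between these pairs of pools.

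Genomic imprinting rests on methylation marks set in egg and sperm that survive the wave of demethylation after fertilisation, when much of the rest of the genome is reprogrammed. In mouse, MEST, IGF2, PEG3, PEG10, PLAGL1, SGCE and NNAT are expressed mainly from the paternal copy, and IGF2R, CDKN1C and GRB10 mainly from the maternal copy in most tissues. Many of them regulate growth of the fetus and placenta. The arrays measured total transcript and did not distinguish the parental copies.

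In these blastocysts, MEST, IGF2R, GRB10, SGCE and NNAT each had a probe above background, PLAGL1 did not meet the rule, and none of the 5 measured genes differed detectably between ethanol and control embryos. A probe was above background in a reading (1 dye on 1 array) when its raw median spot intensity was above the 95th percentile of 153 negative controls spotted on the array, read in the same dye. Probes that passed with 3 or more ethanol pools, or with 3 or more control pools, were kept. By that rule 5 of the 12 imprinted-gene probes were kept, against 63.4% of all probes with a usable symbol and 59.1% of all probes. By gene it was 5 of the 6, against 66.4% of all genes with a usable symbol. All 8 readings were above background for 4 of the 12 probes, against 43.0% of probes with a usable symbol and 37.9% of all probes. The 4 Cy3 readings all passed for 6 of the 12 probes, against 68.8%, and the 4 Cy5 readings for 4, against 43.5%. Of all probes, 70.4% to 73.5% passed in Cy3 and 45.3% to 57.3% in Cy5, depending on the array, so a dim probe could pass in one dye and fail in the other.

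GRB10, an adaptor protein that binds the insulin and IGF1 receptors and restrains their signalling, was far above background in every reading. Its raw intensity in ethanol pools was 2981, 5453, 2307 and 5763 on arrays 1 to 4, and in control pools 6060, 2267, 4847 and 2993. These values were 24.9 to 41.3 times the thresholds. The higher intensity lay with whichever RNA was in Cy3, on all 4 arrays.

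MEST, which encodes a protein of the alpha/beta hydrolase fold, was above background in all 8 readings at 1.32 to 2.89 times the thresholds. Its raw intensity was 164, 298, 131 and 237 in ethanol pools and 343, 263, 310 and 98 in control pools on arrays 1 to 4. Within Cy5, the ethanol pools read 164 and 131 and the control pools 263 and 98. The control pools therefore spanned the ethanol pools in that dye. Within Cy3, the ethanol pools read 298 and 237 and the control pools 343 and 310, without overlap in raw intensity. The Cy3 thresholds differed between arrays, however. Relative to them, the ethanol pool of array 2, at 2.06 times its threshold, lay above the control pool of array 1. On that scale the ethanol and control pools overlapped in Cy3 as well.

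IGF2R, the cation-independent mannose 6-phosphate receptor that carries IGF2 to the lysosome for breakdown, had a probe (EMPV1_14636) above background in all 8 readings at 1.16 to 1.49 times the thresholds. Its raw intensity was 123, 198, 84 and 211 in ethanol pools and 222, 118, 178 and 84 in control pools on arrays 1 to 4. A second IGF2R probe (EMPV1_06156) was above background in 4 of 8 readings and was not kept. Both probes carry the same accession.

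SGCE, the epsilon subunit of the sarcoglycan complex that links the cytoskeleton to the matrix, had 3 probes, of which 1 (EMPV1_18425) was above background in all 8 readings. Its raw intensity was 89, 158, 76 and 199 in ethanol pools and 191, 103, 147 and 92 in control pools on arrays 1 to 4. This was 1.08 to 1.27 times the thresholds, the narrowest margin among the 4 probes that passed in every reading. The other SGCE probes, EMPV1_27917 and EMPV1_27364, were each above background in 1 of 8 readings.

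NNAT, a small membrane proteolipid known from developing brain and from endocrine cells, was at the edge of detection. The brightest of its 3 probes (EMPV1_27331) was above background in all 4 Cy3 readings and in 1 of 4 Cy5 readings, which made 3 ethanol pools and 2 control pools. Its raw intensity was 67, 211, 72 and 244 in ethanol pools and 214, 86, 196 and 67 in control pools on arrays 1 to 4. Of the other NNAT probes, EMPV1_03288 passed in 3 of 8 readings and EMPV1_01709 in 0 of 8.

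PLAGL1, a zinc finger transcription factor with growth-restraining activity, had 2 probes and neither was kept. EMPV1_41753 was above background in all 4 Cy3 readings, 2 of ethanol and 2 of control RNA, and in 0 of 4 Cy5 readings. This dye pattern was shared by 7.90% of all probes with a usable symbol. EMPV1_08005 was below background in all 8 readings, between 0.75 and 0.85 times the thresholds. PLAGL1 was thus not well above background under the rule, and no ratio is given for it. The plot of readings against background shows all 12 probes.

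Probes of 1 gene did not always vary alike. Over the 8 normalised values, with each dye's mean removed, Pearson r was 0.80 between the IGF2R probes and -0.47 between the PLAGL1 probes. The 3 pairs of SGCE probes had 0.62, -0.01 and -0.61, and the 3 pairs of NNAT probes 0.29, 0.74 and 0.14. Every pair includes a probe that was not kept.

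**Figure D1:**
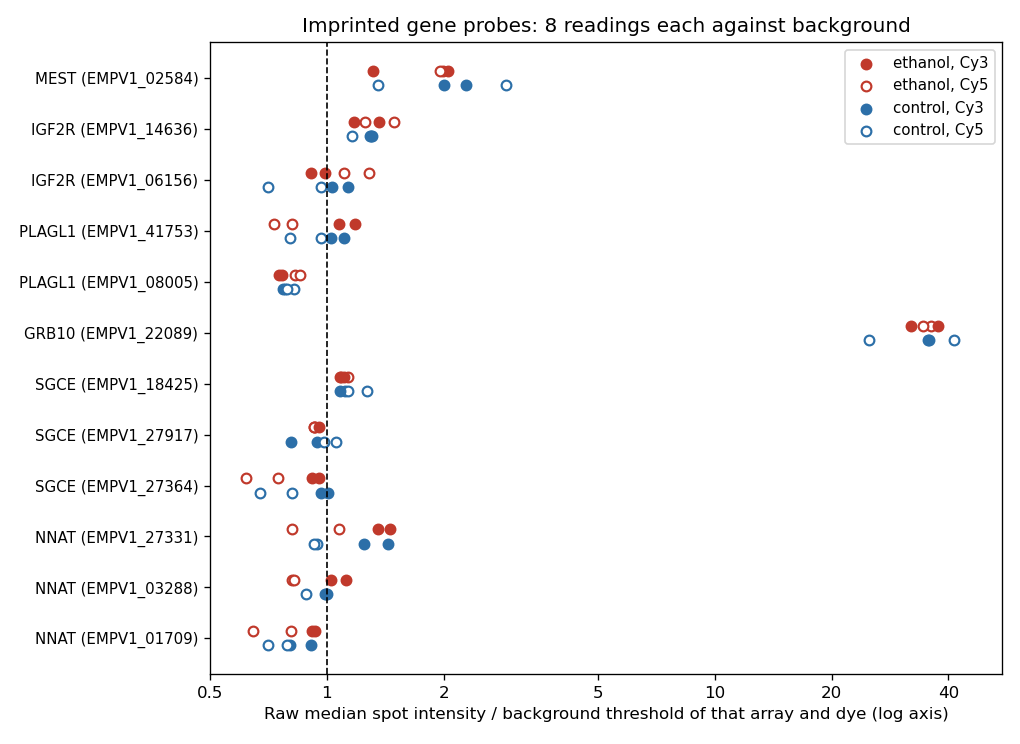
Raw median spot intensity divided by the background threshold of the same array and dye (log axis) for the 12 probes of 6 imprinted genes, 8 readings each. Red points are ethanol pools and blue points control pools, filled for Cy3 and open for Cy5. The dashed line marks the threshold. GRB10 lies at 24.9 to 41.3, MEST, the first IGF2R probe and the first SGCE probe lie to the right of the line in all 8 readings, and the remaining 8 probes straddle it or lie to its left.

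The number of genes called present moved by 1 with the rule. It was 4 of 10, without NNAT, when all 4 arrays of 1 RNA had to pass or when the threshold was the median plus 3 SD of the negative controls. It was 6, with PLAGL1 added, when 2 arrays of 1 RNA sufficed or when only Cy3 was read, a setting chosen after seeing the data. MEST, IGF2R, GRB10 and SGCE passed in all 6 settings run.

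The ethanol and control pools were then compared by their log2 ratios, taken after loess normalisation within each array and fitted with limma. The fit had a coefficient for ethanol over control and a dye coefficient for each probe. None of the 5 measured imprinted genes passed an adjusted p of 0.05 or an unadjusted p under 0.05. Over the whole array, limma called 0 of 25899 kept probes (0%) at the adjusted threshold, and 9.03% of 7344 kept genes were under the unadjusted one (4.83% higher and 4.19% lower), or 7.27% of kept probes. The fitted ratios of the 5 genes ran from -0.22 to 0.09, with 3 above 0 and 2 below, against 50.4% of all kept genes below 0. Their median absolute ratio was 0.080, and that of all kept genes was 0.073. Because each pool mixed whole embryos, fewer cells of a type and less RNA per cell cannot be told apart in these values.

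MEST had the lowest fitted log2 ratio of the 5 genes, at -0.22 (SE 0.12, n = 4 arrays, limma adjusted p = 0.788). The 95% interval ran from -0.52 to 0.07, which corresponds to a ratio of 0.70 to 1.05. Without the normexp offset the fitted value was -0.29 with a larger SE of 0.15. Before the dye term the ratio was 0.21, -0.81, -0.08 and -0.21 on arrays 1 to 4. With the dye coefficient removed it was -0.08, -0.53, -0.37 and 0.08. Array 2 thus stood lowest, array 4 lay above 0, and the pairs of pools did not agree in sign. Without array 2 the fitted value was -0.07, and without array 4 it was -0.38 (unadjusted p = 0.0169, adjusted p = 0.476 by limma).

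Marker genes of the blastocyst's cell types were read beside these values. Markers of the trophectoderm, the outer epithelium, had a median log2 ratio of -0.16 over 10 measured genes, 3 above 0 and 7 below. Of the 10, 3 were lower at an unadjusted p under 0.05, against 4.19% of kept genes. The 3 inner cell mass markers had a median of -0.26, with 1 lower at that p. The 5 hypoblast markers had a median of 0.09 with 0, and the 11 cumulus and granulosa markers a median of 0.03 with 0. The hypoblast median was the value of PDGFRA, kept through 3 ethanol arrays against 2 control arrays. Its direction was thus not independent of the filter. The marker counts use each gene's brightest kept probe and depend on that choice. Another kept probe of DPPA5 (-0.40) and of POU5F1 (-0.23) was lower at that p. Another of the trophectoderm marker DAB2 was higher (0.23), while its brightest lay at -0.19. Summed normalised intensity of the trophectoderm markers was 81519 to 187257 in ethanol pools and 99204 to 172579 in control pools. KRT8 and KRT18, with raw readings up to 65080 and dye coefficients of 1.02 and 1.22, made up most of that sum. Without both, the sum over the other 8 genes was 24805 to 32411 in ethanol pools and 25877 to 38290 in control pools, which overlap. The part of these markers in the MEST value was not tested.

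IGF2R had a fitted log2 ratio of 0.08 (SE 0.08, 95% interval -0.13 to 0.29, adjusted p = 0.958). Before the dye term its ratio was 0.50, -0.20, 0.17 and -0.15 on arrays 1 to 4. The sign followed the dye. With the dye coefficient removed the values were 0.25, 0.05, -0.09 and 0.11 on arrays 1 to 4, so 3 of 4 pairs lay above 0. Without array 1 the fitted value was -0.0045 and without array 3 it was 0.17.

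GRB10 had a fitted log2 ratio of 0.04 (SE 0.14, adjusted p = 0.993). With the normexp offset its interval, -0.30 to 0.37, was the widest of the 5 genes. Its ratio before the dye term was 0.01, 0.58, -0.27 and -0.18 on arrays 1 to 4. Arrays 2 and 4, which had the same dye orientation, differed by 0.76 on the log2 scale, and arrays 1 and 3 by 0.28. With the dye coefficient removed, arrays 1 and 2 lay at 0.17 and 0.42 and arrays 3 and 4 at -0.10 and -0.34. GRB10 was 24.9 or more times its thresholds. Its SE of 0.14 lay above the middle range of all kept genes (25th to 75th percentile, 0.074 to 0.101). That range is given with the normexp offset only, and the SEs depended on the offset. Without it the SE was 0.1525 for GRB10 and 0.1527 for MEST. The SEs of IGF2R, SGCE and NNAT went from 0.08, 0.07 and 0.07 to 0.13, 0.11 and 0.12. The part of the offset in the contrast between GRB10 and all kept genes was not tested. The direction of GRB10 depended on single arrays, with -0.15 without array 2 and 0.23 without array 4.

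SGCE varied little between arrays of the same dye orientation, on a probe close to background. Removing the dye coefficient makes the mean of arrays 1 and 3 equal that of arrays 2 and 4. Agreement between the 2 orientations was therefore fixed by the fit. Its ratio before the dye term was 0.29, -0.36, 0.31 and -0.38 on arrays 1 to 4, so its sign turned with the dye on every array. With the dye coefficient removed the values were -0.05, -0.02, -0.02 and -0.05. The fitted log2 ratio was -0.04 (SE 0.07, 95% interval -0.20 to 0.13, limma adjusted p = 0.986). The bounds correspond to a ratio of 0.87 to 1.10. Without the normexp offset the fitted value was -0.05 (SE 0.11).

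NNAT had a fitted log2 ratio of 0.09 (SE 0.07, 95% interval -0.09 to 0.26, adjusted p = 0.921). With the dye coefficient removed its 4 values were 0.02, 0.05, 0.15 and 0.12, all above 0. The probe had been kept through its ethanol readings, 3 arrays against 2 for control, so its direction was not independent of the filter. Before the dye term they were -0.30, 0.38, -0.18 and 0.45 on arrays 1 to 4, and the sign followed the dye. The fitted NNAT value was 0.16 without the normexp offset, 0.19 when pixel means were used and 0.081 with local background subtracted.

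The dye coefficient was larger than the ethanol ratio throughout. The dye coefficient, the part of the log2 ratio that stayed with Cy5, was 0.29 for MEST, 0.25 for IGF2R, -0.17 for GRB10, 0.34 for SGCE and -0.33 for NNAT. In absolute size it exceeded the ethanol ratio in 5 of 5 genes, against 65.1% of all kept genes. None of the 5 kept a single sign on all 4 arrays before the dye term, against 10.3% of kept genes that did. With the dye coefficient removed SGCE and NNAT kept a single sign, 2 of 5, against 24.7%, and for NNAT the filter favoured that sign. All 5 of the 95% intervals held 0. With the normexp offset of 50, all 5 also lay within 1.5-fold in either direction, and 94.6% of kept genes had intervals within 1.5-fold. That bound did not hold for MEST without the offset. There its value was -0.29 with an SE of 0.15, and its interval reached past 1.5-fold on the lower side.

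**Figure D2:**
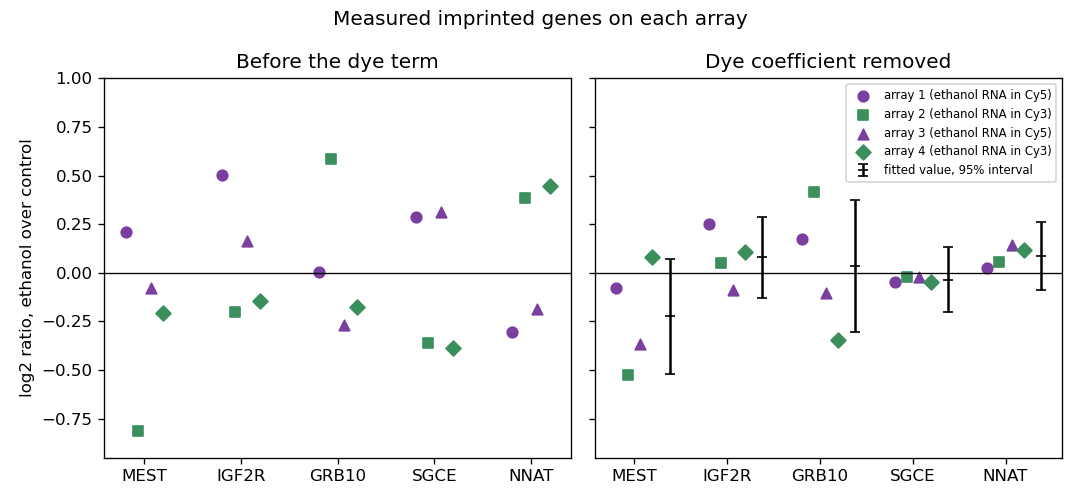
Log2 ratio of ethanol over control on each of the 4 arrays for the 5 imprinted genes with a kept probe, before the dye term (left) and with each probe's dye coefficient removed (right). Purple marks arrays with ethanol RNA in Cy5 and green those with it in Cy3, and black bars are the fitted values with 95% intervals. The signs of IGF2R, SGCE and NNAT on the left follow the dye, the SGCE points on the right lie between -0.05 and -0.02, and the GRB10 points on the right spread from -0.34 to 0.42.

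Further genes reported as imprinted in human or mouse were compared in the same fit. Of 60 such genes, 37 had a probe and 19 were measured (51.4% of those with a probe, against 66.4% of all genes). None of the 19 was under an unadjusted p of 0.05, against 9.03% of kept genes, and 8 lay above 0 and 11 below, with a median log2 ratio of -0.0047. The median over all kept genes was -0.00092. Among the 18 that had a probe and were not measured, 9 were below background in all 8 readings.

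The 12 genes named by smallest p are given with the range of the fitted value as 1 array at a time was left out. DCN, the matrix proteoglycan decorin, had 0.13 (SE 0.07, range 0.10 to 0.15). Before the dye term DCN lay at 0.43, -0.25, 0.47 and -0.15 on arrays 1 to 4, so its sign followed the dye. TFPI2, a protease inhibitor made by placenta, had 0.26 (SE 0.17, range 0.0092 without array 2 to 0.51). SLC22A18, a membrane transporter of the CDKN1C domain, had 0.12 (SE 0.09, range 0.013 without array 4 to 0.22).

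ASB4, which encodes an ankyrin-repeat protein, had 0.17 (SE 0.08, range 0.10 to 0.24) and 0.065 with pixel means. It was kept through 3 ethanol arrays against 2 control arrays, so this direction was not independent of the filter. In the lower direction, BLCAP, whose gene hosts NNAT in an intron in human, had -0.21 (SE 0.10, range -0.34 to -0.083). NAP1L4, a histone chaperone, had -0.15 (SE 0.10, range -0.28 to -0.031).

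MEG3, a long noncoding RNA of the DLK1 domain, had -0.14 (SE 0.08, range -0.19 to -0.089) on its brighter probe, which was above background in all 8 readings. Single-array values of that probe were -0.04, -0.11, -0.25 and -0.18 after the dye coefficient was removed. Before the dye term they were -0.62, 0.48, -0.83 and 0.41, so the sign turned with the dye on every array. The dye coefficient was -0.58, larger than the ethanol ratio, and agreement between the dye orientations was fixed by the fit. Its other kept probe lay at -0.014, and the average of both gave -0.078.

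Some of these genes lie beside a listed one. COPG2, a coat protein gene next to MEST, had -0.13 (SE 0.13, range -0.32 to 0.05). PPP1R9A, near SGCE and PEG10, had -0.0047 (SE 0.16), with single arrays on both sides of 0 and a range from -0.24 without array 1 to 0.23 without array 3. The small GTPase DIRAS3 had -0.0082 (range -0.19 to 0.17). The inositol phosphatase INPP5F had -0.08 (range -0.14 to -0.016) and the retrotransposon-derived RTL1 0.06 (range 0.05 to 0.08). Before the dye term the sign of RTL1 followed the dye. The adjusted p of these 12 named genes lay above 0.05 in limma.

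**Figure D3:**
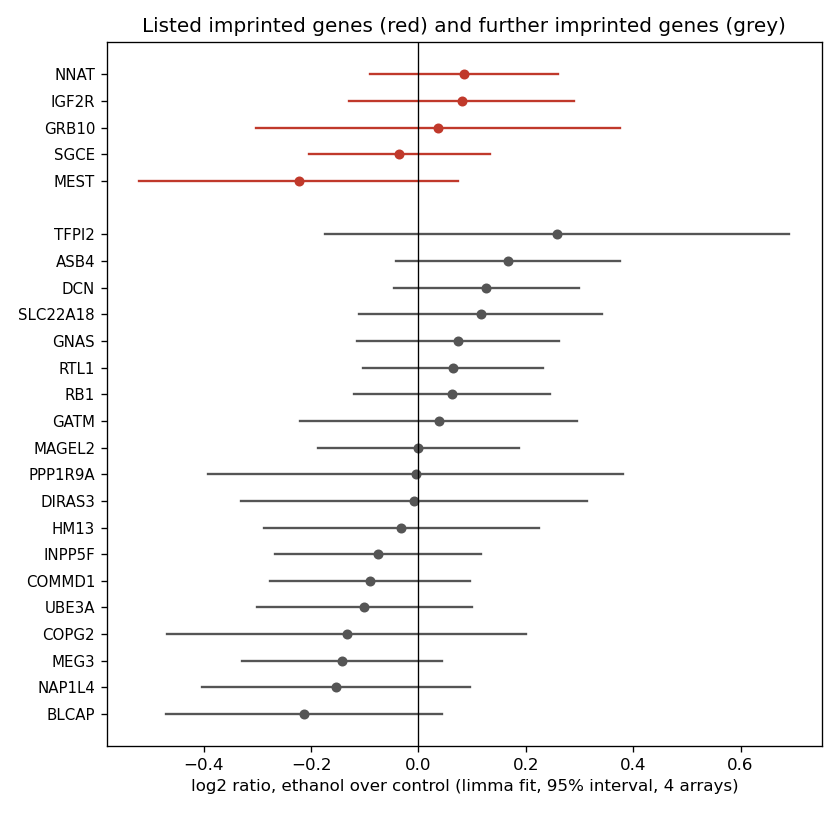
Fitted log2 ratio of ethanol over control with its 95% interval over 4 arrays, for the 5 measured genes of the list (red) and 19 further imprinted genes (grey). Every interval crosses 0, and TFPI2 at 0.26 and MEST at -0.22 are the outermost values.

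Genes of the machinery that keeps imprints through early cleavage were also compared. Of 27 such genes and related methylation enzymes, 16 had a probe and 12 were measured. Of these 12 genes, 2 had an unadjusted p under 0.05, both higher, against 4.83% of kept genes in that direction, and 0 passed over all probes. DNMT1, the maintenance methyltransferase that copies methylation to new strands, had a log2 ratio of 0.35 (SE 0.07), with values on arrays 1 to 4 of 0.45, 0.36, 0.24 and 0.33 after removal of the dye coefficient. TET1, which oxidises methylcytosine, had 0.56 (SE 0.12). Its lowest array was array 3, at 0.22 after removal of the dye coefficient and at -0.11 before the dye term. Both genes had a limma adjusted p of 0.512. ARID4B had 0.15 (SE 0.10), or 0.044 without array 1, and MBD3, a subunit of the NuRD complex, -0.19 (SE 0.13), or 0.00062 without array 3. No probe carried the symbols of the imprint-protecting factors ZFP57, TRIM28 and DPPA3, and UHRF1, the partner of DNMT1, was above background in 4 of 8 readings of its better probe and was not kept.

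In the insulin-like growth factor system, where IGF2, IGF2R and GRB10 act, 25 of 31 further genes had a probe and 18 were measured. Under an unadjusted p of 0.05 there were 3 higher and 1 lower, against 4.83% and 4.19% of kept genes, and 0 passed over all probes. The adaptor GRB2 had 0.58 (SE 0.09), GRB14, a relative of GRB10 that also binds the insulin receptor, 0.57 (SE 0.12) and the binding protein IGFBP7 0.50 (SE 0.10). STC2, a secreted glycoprotein that inhibits cleavage of IGF binding proteins, had -0.51 (SE 0.09). The limma adjusted p was 0.512 for each of these 4 genes.

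GRB14 had 1 of its 5 probes kept, and with the dye coefficient removed that probe lay at 0.26, 0.42, 0.89 and 0.72 on arrays 1 to 4. GRB7, also a relative of GRB10 and named after its value was seen, lay the other way at -0.33 (SE 0.14). The 3 kept probes of IGFBP7 lay at 0.50, 0.35 and 0.15. Receptors and the ligand of the pathway were named for their role after their values were seen. IGF1R had 0.14 (SE 0.10), from 0.019 without array 1 to 0.27 without array 3, INSR 0.02 (SE 0.07) and IGF1 0.02 (SE 0.07). M6PR, the second mannose 6-phosphate receptor, had 0.17 (SE 0.07) on its brightest probe and -0.02 to 0.12 on its other 6 probes.

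Among 24 genes that act with CDKN1C, SGCE or PEG3, 18 had a probe and 13 were measured. Only BAX was under an unadjusted p of 0.05, at -0.42 (SE 0.07, adjusted p = 0.512), and it lay below 0 on all 4 arrays, between -0.56 and -0.32 before the dye term. BAX is a pore-forming death effector that PEG3 acts upon in mouse cells. CDK6, a kinase of the G1 phase, had 0.17 (SE 0.07), the CDK inhibitor CDKN1A, a relative of CDKN1C, 0.16 (SE 0.07), and CDK4 -0.15 (SE 0.08). The sarcoglycan genes SGCA, SGCB and SGCD had a probe each and none was kept, with at most 1 of 8 readings above background.

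The labelled stage was read against marker genes, beside the 66.4% of all genes with a probe that were measured. Of 12 trophectoderm markers with a probe, 10 were measured and 9 were above background in all 8 readings, among them CDX2, KRT8 and KRT18. Of 6 inner cell mass markers with a probe 3 were measured, with POU5F1 above background in all 8 readings, and of 5 hypoblast markers with a probe all 5 were measured. Cumulus and granulosa markers, from cells that can adhere to the embryo, were measured for 11 of 12 genes with a probe, 5 of them in all 8 readings. The share measured was thus 91.7% for cumulus and granulosa markers, 83.3% for trophectoderm and 50% for inner cell mass, and these shares alone do not single out the labelled stage. The cumulus and granulosa markers' summed normalised intensity was 1729 to 1940 in ethanol pools and 1779 to 1943 in control pools. Of the blood and sperm markers, 3 had a probe and PTPRC was measured, while TNP1 and ODF1 were below background in all 8 readings.

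The genes whose 8 normalised values most resembled those of a member were found after each probe's mean per dye was subtracted. For GRB10 these were AP2B1 (Pearson r = 0.99), GABBR2 (0.98) and DENND4A (0.98). MEST was followed most closely by PDE4B (0.98), RAB25 (0.97) and DNAJB9 (0.97), and IGF2R by GIPC2 (0.98), GCH1 (0.97) and USP34 (0.97). These were the 3 highest of 7343 genes for each member, and the 99th percentile over all genes was 0.87 to 0.89. The 8 values come from 4 arrays, so both readings of an array share its hybridisation.

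**Figure D4:**
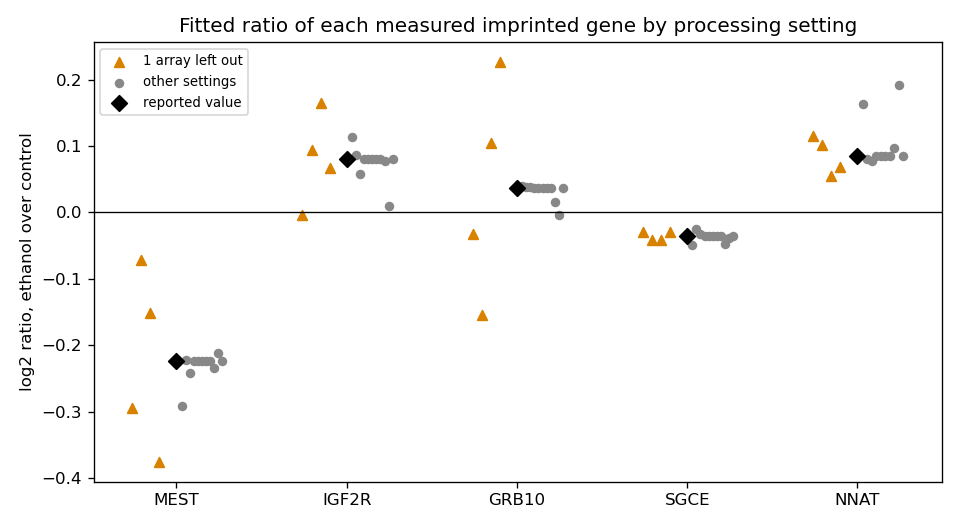
Fitted log2 ratio of ethanol over control for each measured imprinted gene. Black diamonds are the reported values, orange triangles the fits with 1 array left out and grey points the other settings. GRB10 runs from -0.15 to 0.23 and MEST from -0.38 to -0.07 as arrays are left out, and SGCE stays between -0.05 and -0.02 over every setting plotted.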

How the data were processed

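The deposited scanner files give spot and local background intensity for Cy3 and Cy5, not normalized, per the file headers. The authors' log2 ratios were deposited as a separate table. Compared with loess-normalised log2 ratios of Cy5 over Cy3 after background subtraction, its columns correlated at 0.985 to 0.997 with slopes of 0.930 to 1.02, which settles scale and direction. Its column medians were -0.0138, -9.35e-05, 0.00378 and 0.00108, and its normalization is not given in the sources used here. Another table with 4 columns could not be matched to samples and was not used.

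Analysis started from median pixel intensities and used limma 3.58.1 (R 4.3.3), with normexp background correction at an offset of 50. In the loess step the 1418 control and other spots had weight 0, and they were then left out. The presence rule used raw intensity and kept 25899 of 43794 probes. With 2 coefficients, 2 residual degrees of freedom remained. Benjamini-Hochberg adjustment ran over all kept probes, with a threshold of 0.05. Each gene is represented by the kept probe of highest mean intensity. Symbols are those of the array's annotation, which names 18121 probes, of which 1023 placeholder symbols were set aside, and leaves 25673 unnamed. Of the 12 imprinted-gene probes, 6 have an accession, and 4 of these matched the RefSeq table of Sscrofa11.1, all under the same symbol. The genes and lists were chosen with earlier results of these data known. All 10 genes are accounted for. From each further list the genes of smallest p were named, up to 4, or up to 6 from each of the 2 lists of other imprinted genes, which are described together. The fit was run on data simulated under its own variance model, as a check of the code only, and no result rests on it. No batch could be tested, as slide and scan date are not known. The number of arrays limits the precision.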

Additional observations from a re-analysis of the deposited data

Results flagged for a closer look

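Log2 ratios without dye correction were searched for an array far from the other 3, over 97 kept probes, those of the 5 imprinted genes and of every measured gene of the further lists and marker lists. Chance alone marks about 1 in 20 such groups of 4 when the arrays share 1 mean, which does not hold for a probe with a dye effect. The search marked TEAD4, a transcription factor of the trophectoderm used here as a stage marker, whose log2 ratio of ethanol over control was 0.0595 on array 4 and -0.42, -0.37 and -0.40 on arrays 1 to 3. Its fitted value was -0.29, or -0.39 without the marked array 4 and -0.18 without array 2. None of the 5 measured imprinted genes was marked. For IGF2R, SGCE and NNAT, whose sign followed the dye, arrays 1 and 3 lay apart from arrays 2 and 4. A single far array is hard to mark in such a split, so the search says little about these genes.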

How the results depend on the processing

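For the 5 imprinted genes, 15 alternatives were run for each, except 14 for NNAT, whose probe was not above background in all 8 readings. They changed the background correction, the presence filter, normalization, variance model and pixel statistic, dropped the dye term, fitted channels separately, averaged probes, used the authors' values or left out each array. The adjusted threshold was passed by 0 probes in every setting run, with 879 to 2696 probes at an unadjusted p under 0.05 by limma. The presence filter, dye term, variance model, channels and averaging left the estimate of each gene as it was (6 settings, 5 for NNAT), so only 9 could move it. In those 9, MEST, SGCE and NNAT kept their direction. With 1 array left out, MEST ran from -0.38 to -0.07, IGF2R from -0.0045 (without array 1) to 0.17, GRB10 from -0.15 to 0.23, SGCE from -0.04 to -0.03 and NNAT from 0.05 to 0.12. GRB10 turned to -0.03 without array 1, to -0.15 without array 2 and to -0.0034 with mean pixel intensity, and IGF2R fell to 0.0097 there. The cause was not tested. The number of the 5 genes under an unadjusted p of 0.05 was 0 to 1 with 1 array left out (MEST without array 4) and 0 otherwise. The fit is already paired, since each array sets an ethanol pool against a control pool. Signal over background limits SGCE, NNAT and IGF2R, whose readings were at most 1.27, 1.46 and 1.49 times the thresholds.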

Other observations

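The genes beside the 10 imprinted genes in the RefSeq table of Sscrofa11.1, 2 protein-coding genes on each side, were looked up after the data were seen. They comprised 36 genes that are not members, of which 20 had a probe and 12 were measured, with 8 above 0 and 4 below. Of these, CPA1, a carboxypeptidase gene beyond CEP41 from MEST, had the only unadjusted p under 0.05, at 0.30 (SE 0.10, limma adjusted p = 0.627), against 9.03% of all kept genes. CTNNBL1, on the other side of NNAT from BLCAP, had 0.12 (SE 0.07). CASD1, near SGCE, had 0.02 (SE 0.11). In that table PEG10 lies directly beside SGCE, and the nearest measured gene on its other side was PPP1R9A.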
